A study of Mus musculus with 26 samples.

Results

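The class III POU transcription factors Pou3f1, Pou3f2, Pou3f3 and Pou3f4, with the noncoding RNA Pantr1, were followed across 26 single mouse retinal amacrine cells, each measured on 1 Affymetrix Mouse 430 2.0 array. These 5 genes were taken by name from 18193 genes with a probe set of their own. Pou3f3 and Pantr1 had been picked because they were bright in few of these same cells, so their levels and counts of cells are a description and carry no test. The inner retina's amacrine cells, mostly inhibitory interneurons, come in many classes, and the study looked for genes that mark them. The cells carried GFP from a plasmid electroporated at P0, driven by the Synapsin promoter (pSynapsin) or the Ndrg4 promoter (pNdrg4), and were picked one by one for fluorescence after the retina was dissociated. The electroporation was done in vivo or ex vivo, and the labels do not say which for each cell.

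Age, reporter and culture divided the cells into 7 groups. Retinas cultured for 4 days gave 1 pSynapsin cell with the label E19 (B1) and 2 pNdrg4 cells with the label P4 (A3 and B4). At P5, 4 pSynapsin cells (E1 to E4) and 5 pNdrg4 cells (C1, C6, D3, D5 and D6) came from retinas cultured for 5 days, and 10 pNdrg4 cells (A1, A2, A5 to A8 and B1 to B4) came with no culture stated. At P8 there were 2 pSynapsin cells (B3 and B4) and 2 pNdrg4 cells (A1 and A2), cultured for 8 days. No strain or genotype is given in the sources used here, and no animal or culture is named, so a group was treated as a single sample and no p-value was computed. SDs are spreads over cells, and intervals for shares of cells are exact Clopper-Pearson 95% intervals that cover counting error only. Detection in a cell meant a MAS5 signal of at least 1000, on arrays whose trimmed mean was 500. Pax6, the homeodomain factor that marks amacrine cells, was detected in 26 of 26 cells, and the number of genes detected per cell ran between 1909 and 4180.

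Class III POU factors bind DNA through a POU-specific domain and a POU homeodomain joined by a linker, and their genes are mostly single exons expressed in developing nervous tissue. Pou3f1, also called Oct6, is known for its role in myelinating Schwann cells, Pou3f2 (Brn2) and Pou3f3 (Brn1) for cortical neurogenesis and migration, and Pou3f4 (Brn4) for the inner ear. They often act with SOX proteins bound at a neighbouring site. Pantr1 is a long noncoding RNA whose gene lies beside Pou3f3, and RefSeq lists linc-Brn1a and Pou3f3os among its other names.

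The start-site regions of 3 of the 5 genes were held in the RefSeq tables for GRCm38.p6, and they are shown because 1 of these 3 paralogs was bright in some cells and the others were dark in all. Each runs from 250 bases before the annotated start to 50 after it, 5′ to 3′ on the gene's own strand. Capitals mark every CCAAT motif, written ATTGG where it lies on the other strand. The Pou3f3 region is chr1:42695518-42695817 on the plus strand, the Pou3f2 region chr4:22488317-22488616 on the minus strand, and the Pou3f4 region chrX:110814129-110814428 on the plus strand.
Pou3f3: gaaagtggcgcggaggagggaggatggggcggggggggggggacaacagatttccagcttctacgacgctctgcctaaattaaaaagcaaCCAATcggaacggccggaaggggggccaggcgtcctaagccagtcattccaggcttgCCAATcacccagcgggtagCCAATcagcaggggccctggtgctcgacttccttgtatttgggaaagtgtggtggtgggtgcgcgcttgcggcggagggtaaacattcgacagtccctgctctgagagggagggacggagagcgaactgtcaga
Pou3f2: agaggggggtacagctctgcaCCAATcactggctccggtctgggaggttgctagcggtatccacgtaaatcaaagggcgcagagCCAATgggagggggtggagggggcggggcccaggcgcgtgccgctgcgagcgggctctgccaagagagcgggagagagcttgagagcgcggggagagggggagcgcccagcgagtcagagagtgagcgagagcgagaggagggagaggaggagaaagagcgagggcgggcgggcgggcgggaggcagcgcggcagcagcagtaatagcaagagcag
Pou3f4: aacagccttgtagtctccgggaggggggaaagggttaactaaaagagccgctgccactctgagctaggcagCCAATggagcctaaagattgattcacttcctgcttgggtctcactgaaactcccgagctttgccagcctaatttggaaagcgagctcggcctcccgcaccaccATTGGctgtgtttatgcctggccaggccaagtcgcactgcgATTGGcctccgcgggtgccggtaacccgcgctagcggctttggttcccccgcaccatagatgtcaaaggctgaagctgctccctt

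Pou3f3 had 3 CCAAT motifs, beginning 160, 103 and 84 bases before the start. Pou3f4 also had 3, at 179, 76 and 35 bases before it, and Pou3f2 had 2, at 229 and 166 bases before it. CCAAT, searched on both strands, occurred in 37.4% of 32851 RefSeq promoter windows of this length, and 3.37% held 3 or more. The POU octamer ATGCAAAT, the classical binding site of this protein family, was in none of the 3 windows and in 1.74% of all windows. TATAAA was in none of the 3 and in 13.6% of all. The GC box GGGCGG had 1 match in Pou3f3, 5 in Pou3f2 and 0 in Pou3f4. It was in 35.7% of all windows, and 2.71% held 5 or more. The core TAAT had 1 match in each of the 3 and was in 58.0% of all. The windows held 18 CpG dinucleotides for Pou3f3, 24 for Pou3f2 and 15 for Pou3f4, against a median of 7 over all windows. All 3 windows held several CCAAT motifs and more CpG than the median window, while their GC boxes differed in number. Of the 3 genes Pou3f3 alone was detected in any cell, and the part of promoter sequence in this was not tested. A motif match is a description of the letters and not a measured binding site.

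Pou3f3 was read at high signal in 5 of 26 cells (19.2%, interval 6.55 to 39.4) and was dark in the rest. The P4 pNdrg4 cell B4 had a signal of 35869.6, and among P5 pNdrg4 cells without a stated culture the signal was 27994 in A2, 25562 in B2, 20098.5 in A5 and 8577 in A6. The next cell, cultured P5 pNdrg4 cell D6, had 253, which left a gap of 33.9-fold with no cell in it, and cell A1 with no culture stated followed with 236. The detection level of 1000 lay inside this gap, so Pou3f3 was either bright or near background and had no intermediate cells.

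Pou3f3 was detected in 0 of 7 pSynapsin cells and in 5 of 19 pNdrg4 cells. All 7 pSynapsin cells were cultured, while 10 of the pNdrg4 cells had no culture stated and held 4 of these 5. The pooled counts therefore mix reporter with culture. Over both reporters, 1 of 16 cultured cells had Pou3f3. Among P5 pNdrg4 cells, 0 of 5 cultured cells (interval 0 to 52.2) and 4 of 10 cells with no culture stated had Pou3f3; the share in the second group was 40% (interval 12.2 to 73.8). In the cultured P5 pNdrg4 cells the signals were 18.7 in C1, 80.9 in C6, 142 in D3, 11.1 in D5 and 253 in D6. In the 10 cells with no culture stated the lowest signal was 23.3, the median 225 and the highest 27994. Their ranges overlapped, since 6 of these 10 cells were as dark as the cultured ones. P4 cell B4, the brightest of the 26, came from a cultured retina. The other P4 cell, A3, had 59.1. The 4 cultured P5 pSynapsin cells had 89.3 in E1, 11.2 in E2, 85.3 in E3 and 75.6 in E4, the E19 cell had 72.3, and the 4 P8 cells lay between 62.6 and 114.

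Pantr1 was detected in 4 of 26 cells (15.4%, interval 4.36 to 34.9), and each of the 4 also had Pou3f3. Its signal was 20604.5 in P4 cell B4, and, with no culture stated, 39691 in B2, 22591 in A5 and 13987 in A2. The highest signal below detection was 283 in cell B3 with no culture stated, a gap of 49.4-fold. The fifth Pou3f3 cell, A6, had a Pantr1 signal of 44.2, as low as cells without either gene. Thus 4 cells had both genes, 1 had Pou3f3 alone, 0 had Pantr1 alone and 21 had neither, which gives a phi coefficient of detection of 0.874. Phi runs as a correlation of yes-or-no calls and is 1 when both genes are detected in the same cells.

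The order of brightness was not the same for both genes. P4 cell B4 was brightest for Pou3f3 and followed B2 and A5 for Pantr1, while B2 was brightest for Pantr1 and followed P4 B4 and A2 for Pou3f3. A ratio of Pantr1 to Pou3f3 signal, which mixes 2 probe sets and has meaning only between cells, was 0.574 in P4 B4, 0.500 in A2, 1.12 in A5 and 1.55 in B2. In A6 it was at most 0.0233, with Pantr1 put at the floor of 200 because its signal was under it. This bound lay below the ratio of each of the 4 cells with both transcripts.

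**Figure D1:**
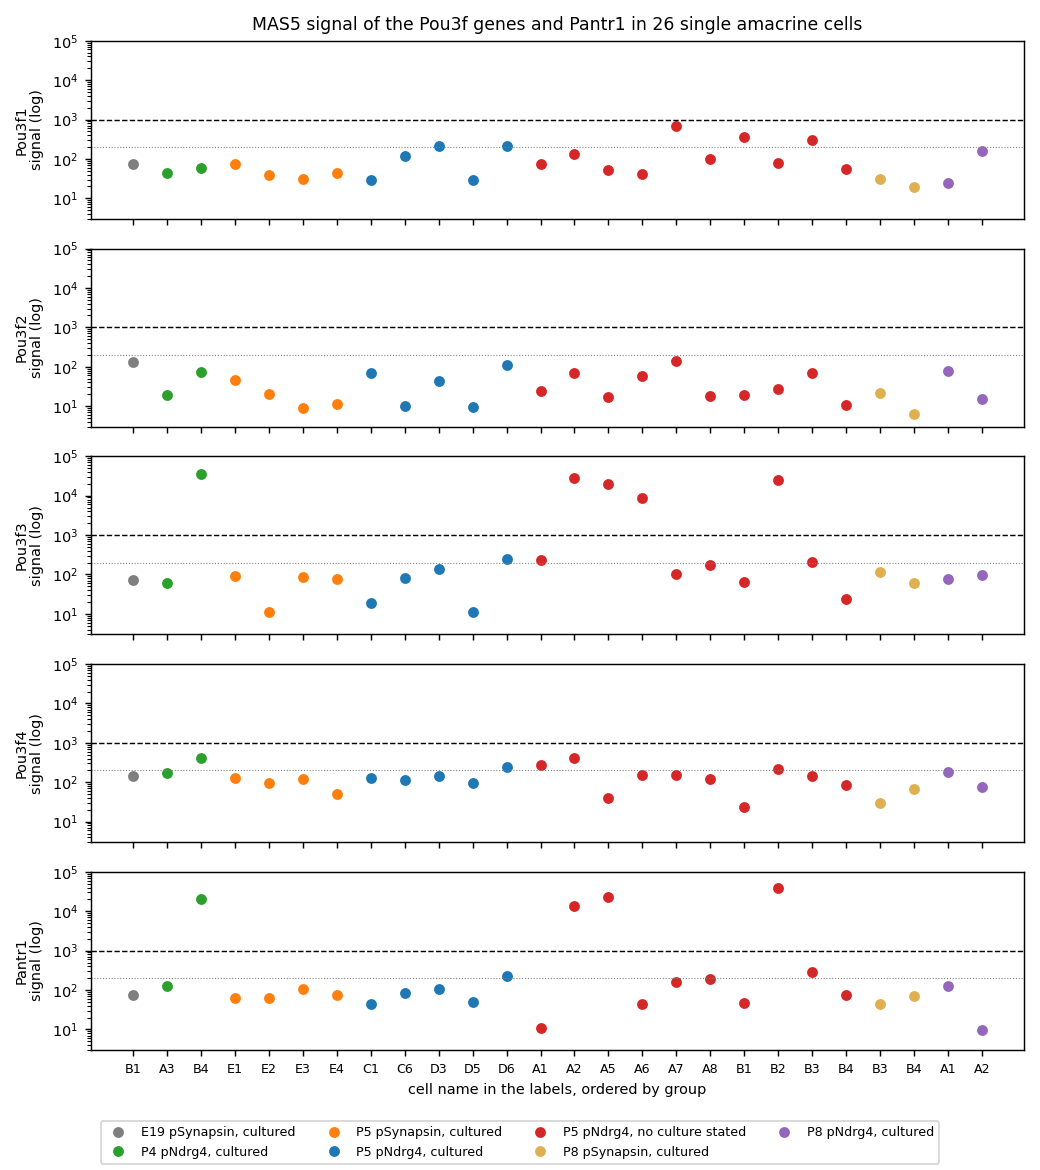
MAS5 signal (log axis) of each of the 5 genes in the 26 cells, 1 point per cell, coloured by group; the dashed line is the detection level of 1000 and the dotted line the floor of 200. Pou3f3 is bright in 5 cells and Pantr1 in 4 of these, while Pou3f1, Pou3f2 and Pou3f4 stay below the dashed line in all 26.

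**Figure D2:**
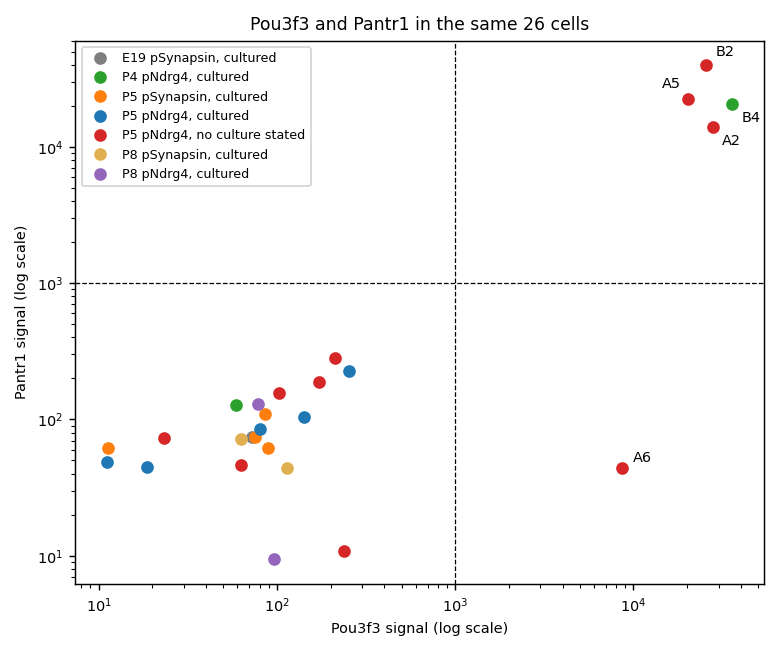
Pantr1 signal against Pou3f3 signal in the same cells (both axes log), coloured by group, with dashed lines at 1000. Cells B4, A2, A5 and B2 lie at the upper right with both genes, A6 at the lower right with Pou3f3 alone, and the other 21 cells at the lower left.

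Pou3f1 was detected in 0 of 26 cells, which allows a share of up to 11.5% if a count of 0 is taken to allow 3 cells, and of up to 13.2% by the exact interval. Its signals ran between 19.6 and 676 with a median of 67.4. The highest was cell A7 with no culture stated, followed by B1 at 355 and B3 at 297 in the same group, and none of these 3 cells had Pou3f3. Its second probe set reached 83.2.

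Pou3f2, which shares cortical roles with Pou3f3, was also detected in 0 of 26 cells. Signals of the probe set that stood for the gene lay between 6.19 and 136, and the other 2 probe sets reached 108 and 183. Every cell was below 200 on all 3 probe sets, so no cell stood out for Pou3f2.

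Pou3f4 was detected in 0 of 26 cells as well. Its 2 highest signals, 410 in A2 with no culture stated and 402 in P4 cell B4, were in cells that had Pou3f3, but the other Pou3f3 cells had 218 in B2, 150 in A6 and 39.1 in A5. The range over all cells was 23.1 to 410 around a median of 125, and the second probe set reached 267. On the signals as deposited, 1 of the 4 factors passed the detection level in any cell. With quantile normalization Pou3f1 passed it in 2 cells, and with the level at 500 in 1, while Pou3f2 and Pou3f4 stayed at 0 in both settings. A gene below 1000 was not detectable at this depth and is not shown to be absent.

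The statement on Pou3f3 rests on 1 of its probe sets. The probe set 1435197_at stood for the gene because it was the brighter. The second, 1422331_at, was below 1000 in 26 of 26 cells and reached 408 in B3 with no culture stated, a cell where the first read 213. In the 5 Pou3f3 cells the second probe set gave 179 in P4 B4, 350 in A2, 11.1 in A5, 209 in A6 and 62.1 in B2, so it did not separate them from other cells. A further probe set, 1429857_at, is annotated to both 2900092D14Rik and Pou3f3 and was not used for the gene. It was detected in 2 cells, A6 at 7049 and A2 at 1223, both of them Pou3f3 cells, and was at most 130 in the other 24. The amplification was primed from oligo dT, and the sources used here do not give where along the transcript each probe set lies, so the part of probe position in this disagreement was not tested. Pantr1 had a single probe set.

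**Figure D3:**
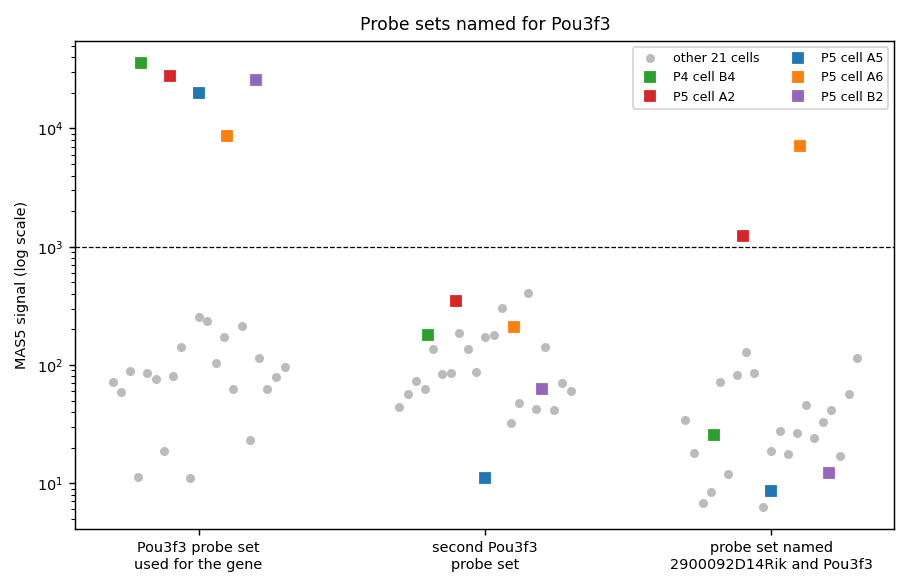
Signals (log axis) of the 3 probe sets whose annotation names Pou3f3; squares are the 5 cells with Pou3f3 detected, grey points the other 21 cells, and the dashed line is 1000. The first probe set separates the 5 cells, the second reads all 26 below 1000, and the third reads A6 and A2 above it.

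Between groups, differences were taken between means of log2 signals with signals under 200 raised to 200 (7.64 on the log2 scale), which shortens differences of dark genes. For culture at P5, cultured pNdrg4 cells were compared with pNdrg4 cells with no culture stated. Pou3f3 averaged 7.71 ± 0.15 in cultured cells (SD, n = 5) and 10.30 ± 3.38 in cells with no culture stated (SD, n = 10), a difference of -2.59. Pantr1 averaged 7.68 ± 0.09 in cultured cells and 9.75 ± 3.30 in cells with no culture stated (SD, n = 5 and 10), a difference of -2.07. Both means of the second group were averages of bright and dark cells, as their SDs show, and with group medians neither gene was past 2 log2 units. So 2 of 5 members were lower in cultured cells by at least 2 log2 units, where 127 of 8570 genes detected in at least 2 cells, or 1.48%, were. No member was higher by that much, against 631 genes or 7.36%. Pou3f1, Pou3f2 and Pou3f4, detected in 0 cells, were not among the 8570, so the members and this background were not filtered alike. Since Pou3f3 and Pantr1 had been picked from these same values, nothing is read from that contrast. Without cell A2, A5 or B2 in turn, the Pantr1 difference was under 2 log2 units and 1 member was left past it; over all cells left out in turn the Pou3f3 difference lay between -2.88 and -2.09 and that of Pantr1 between -2.30 and -1.46. The cells differed in depth too: the number of genes detected per cell had a median of 3256 (3049 to 3925) in cultured cells and 2361.5 (1909 to 3513) in cells with no culture stated, and the part of this in the result was not tested. Pou3f1 differed by -0.27, Pou3f4 by -0.10 and Pou3f2 by 0, with the median of the 8570 genes at 0.31.

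The reporter and age comparisons held no bright member. At P5 in cultured cells, pSynapsin minus pNdrg4 gave differences between -0.07 and 0 for the 5 genes, and at P8 all 5 were at the floor in both reporters. None passed 2 log2 units, while 10.3% of genes did at P5 and 21% at P8 in either direction. P8 minus P5, averaged over both reporters, gave differences between -0.03 and 0, and 0 of 5 passed, against 5.48% of genes. Age and days in culture cannot be told apart there. The shares of 10.3%, 21% and 5.48% are over the 8570 genes detected in at least 2 cells, which leave out Pou3f1, Pou3f2 and Pou3f4. With every member near the floor in these groups, those differences say only that the genes were dark on both sides.

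The genes beside Pou3f3 on its chromosome were compared in the same cells. In the order of the RefSeq annotation, the measured genes before it were Mfsd9, Tmem182 and Pantr1, and those after it Dalir, Mrps9 and Gpr45. Tmem182, a transmembrane protein gene, was detected in 0 cells with a maximum of 163, and Mfsd9, of the major facilitator family, in 0 with a maximum of 155. Dalir, a noncoding RNA, was detected in 0 cells with a maximum of 95.4, and the orphan receptor gene Gpr45 in 0 with a maximum of 427. Mrps9, which encodes a mitochondrial ribosomal protein, was detected in 11 cells, 1 of them a Pou3f3 cell (P4 B4 at 23333), with a phi to Pou3f3 of -0.22. Among these 6 neighbours, detection together with Pou3f3 in most of its cells was seen for Pantr1. Other annotated genes lie between them that had no probe set of their own here.

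**Figure D4:**
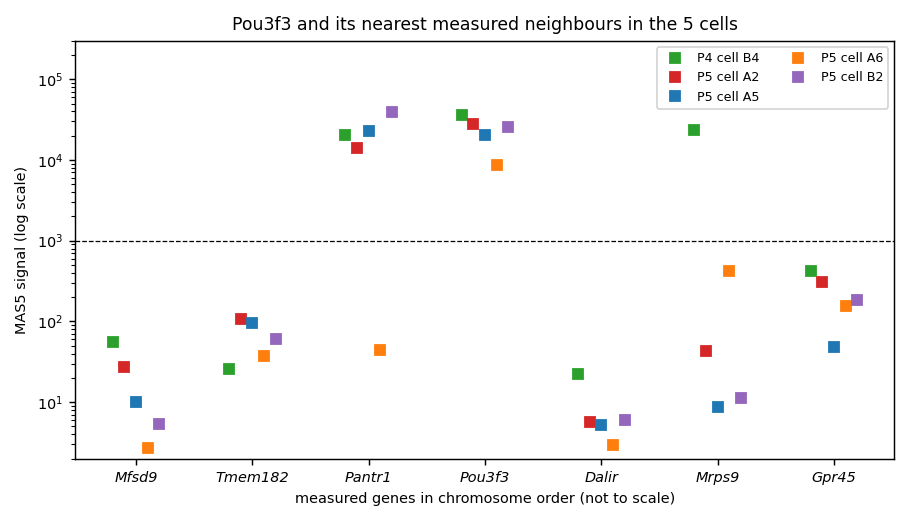
Signals (log axis) of Pou3f3 and the 3 nearest measured genes on each side, in chromosome order and not to scale, in the 5 cells with Pou3f3; the dashed line is 1000. Pantr1 is above the line in 4 of the 5 cells, Mrps9 in P4 cell B4, and the other 4 neighbours in none.

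Over the 7502 genes detected in at least 3 cells, Pantr1 had the highest phi to Pou3f3, and Pou3f3 the highest to Pantr1. The next named genes for Pou3f3 were Ptprm, a receptor tyrosine phosphatase that mediates cell adhesion (phi 0.752, 4 cells shared of its 5), Gh, which encodes growth hormone (0.740, 3 of 3), Snx27, an endosomal sorting nexin (0.671, 5 of 9), and Cbfa2t3, a transcriptional corepressor (0.659, 4 of 6). Cbln1, Usp8 and Prm1 tied with Cbfa2t3 on phi. For Pantr1 they were Gh (0.847), the deubiquitinase gene Usp8 and the protamine gene Prm1 (0.778 each), and the tyrosine phosphatase gene Ptpn1 (0.705). A high best phi was common among genes detected in so few cells. Of 694 other genes detected in 5 cells, 251 (36.2%) had a best phi at least as high as 0.874, and of 719 other genes detected in 4 cells, 227 (31.6%) did. Phi and these shares are over all 26 cells and do not take the group into account. Of the 5 Pou3f3 cells, 4 were P5 pNdrg4 cells with no culture stated, so a high phi can also go with brightness in that group.

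Several of these partners were graded rather than bright and dark. Gh had 2608 in A2, 1244 in A5 and 1036 in B2, with 696 in P4 B4 and 578 in A6, while cells without Pou3f3 had a median of 353 and reached 952. Prm1 read between 1044 and 1642 in the 4 Pantr1 cells and up to 1196 in the other 22. Both genes had values close to the detection level on either side of it. Ptprm was different, with 29701 in B2, 10922 in A6, 6001 in A2 and 5619 in P4 B4, against 143 in A5 and up to 6753 in cells without Pou3f3. Cbfa2t3 had 11915 in A2, 8237 in A5, 7808 in B2 and 6891 in A6, against 102 in P4 B4 and up to 4325 in cells without Pou3f3. With detection set at 2000, 3 of the 5 genes named for Pou3f3 and 2 of the 5 for Pantr1 were still among the first 5.

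Among the other POU factors, 6 of 10 listed genes were measured and 2 were detected in some cell, against 55.9% of all 18193 genes. Pou6f1, a class VI factor of the nervous system, was detected in 13 cells, 4 of them Pou3f3 cells: P4 B4 at 12887, A5 at 9637, B2 at 7201 and A2 at 2183, with A6 at 154. These are the 4 cells with Pantr1. Of 284 genes detected in 13 cells, 7.75% were detected in 4 or more of the 5 Pou3f3 cells. That share does not take the group into account. A second Pou6f1 probe set reached 262 and was below 1000 in 26 of 26 cells. Pou4f1, a class IV factor of retinal ganglion cells, was detected in 1 cell, B4 with no culture stated, at 2790, and that cell lacked Pou3f3. Pou2f2, Pou2f3, Pou4f3 and Pou5f1 were below 1000 in all cells on the probe sets that stood for them; another Pou2f2 probe set reached 1016, in 1 cell.

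The SOX genes, whose products are known partners of class III POU factors, gave 5 of 6 detected in some cell, against 55.9% of all 18193 genes. Sox4 was detected in 26 of 26 cells and so in all 5 with Pou3f3, between 1681 in B2 and 40255 in A6. Sox11 was detected in 16 cells, among them P4 B4, A2 and B2, and Sox12 in 16, among them P4 B4 and A2. Sox2, known for binding next to Pou3f factors in progenitors, was detected in 4 cells and in 0 of the 5, as were 56.9% of the 720 genes detected in 4 cells. Of genes in which class III POU factors have been studied elsewhere, 8 of 10 measured were detected in some cell, against the same 55.9%. Cdk5r1, the neuronal activator of the kinase Cdk5, was detected in 24 cells and in all 5 Pou3f3 cells, as were 39.2% of the 97 genes detected in 24 cells. Fabp7, a fatty-acid-binding protein gene, was detected in 9 cells and 3 of the 5. Dab1, the adaptor of the reelin receptors, was in 13 cells and 1 of the 5 (A6 at 1233), Cdk5r2 in 1 of the 5 (A6), Dll1 in 1 (P4 B4) and Mitf in 1 (A2). Detection of this list as a whole ran between 1 and 4 genes in the Pou3f3 cells and between 1 and 4 in the other 21.

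Amacrine transcription factors were present in every Pou3f3 cell. Of 25 measured, 7 to 9 were detected per Pou3f3 cell and 4 to 14 per other cell, and 4 were detected in all 5. Pax6 read 32213 in P4 B4, 29225 in A2, 22174 in A5, 17758 in A6 and 22524 in B2. The AP-2 factor Tfap2b, of amacrine and horizontal cells, read 35604.5 in P4 B4, 33717 in A2, 35657 in A5, 17807 in A6 and 54926 in B2, and was detected in 20 cells in all. Both genes were far above the detection level in each of the 5 cells.

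Tfap2a was detected in 16 cells, with 27152 in P4 B4, 11862 in A2, 11400.0 in A5, 2188 in A6 and 1260.4 in B2. Meis1, a TALE homeodomain factor, was detected in 12 cells, with 41061 in P4 B4, 7265 in A2, 17943 in A5, 10646 in A6 and 33948 in B2. Of 305 genes detected in 12 cells, 3 (0.984%) were detected in all 5 Pou3f3 cells. For genes in 16 cells the share was 3.03% and for genes in 20 cells 10.8%. These shares are over all 26 cells and do not take the group into account. Of the 7 Meis1 cells without Pou3f3, P4 cell A3 read 2834. With no culture stated, A1 read 19976, A8 8044 and B4 1817, also without Pou3f3. The rest were in groups with no Pou3f3 cell: cultured P5 pSynapsin cell E4 at 15482, cultured P5 pNdrg4 cell C6 at 4041 and P8 pSynapsin cell B3 at 4058. Other probe sets were detected in fewer cells: 5 and 0 for Meis1, 8 and 0 for Tfap2a, and 11 for Tfap2b.

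Other factors divided the 5 cells. Neurod1, a neuronal bHLH factor, was bright in P4 B4 at 30943, B2 at 21622 and A2 at 7647. Six3, a homeodomain factor of the eye field, followed the same 3 cells with 9627 in P4 B4, 12486 in B2 and 8321 in A2. Barhl2, a homeodomain factor of amacrine and ganglion cells, was in A5 at 13076, P4 B4 at 7134 and B2 at 1053, and Onecut2 in A5 at 5257 and B2 at 3049.5. Neurod4 at 19289, Meis2 at 16361 and Six6 at 13516 were detected in A6 and in none of the other 4. Six6 read 950 in A5, just under the detection level of 1000. Nr4a2, an orphan nuclear receptor, was detected in A5 alone among the 5, at 20229. Tcf4 was detected in 16 cells but in P4 B4 alone among the 5, at 6226. Satb1 was in P4 B4 at 2137 and A2 at 1519, and Neurod2 in A2 alone at 1475. Of the 25 measured factors, then, 4 (Pax6, Tfap2a, Tfap2b and Meis1) were in all 5 cells, 11 were in some of them and 10 were in none. Pax6 was in 26 of 26 cells and 2 of the factors in no cell, so their places were fixed. For the rest the place depends on how many cells a gene was detected in, and nothing is read from these counts.

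Nhlh2, a bHLH factor, was detected in 13 cells and in 0 of the 5; of 284 genes detected in 13 cells, 22 (7.75%) were in none of the 5. Ebf3 was detected in 8 cells and Ebf1 in 7, and neither in any of the 5, which held for 27.2% of genes in 8 cells and 29.3% of genes in 7 cells. Tfap2c and Lhx9, in 3 cells each, were also in none of the 5, as were 63.2% of genes in 3 cells.

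On the transmitter side, Gad1, which makes GABA, was detected in 11 cells, 4 of them with Pou3f3: A5 at 28786, P4 B4 at 27313, B2 at 9423 and A6 at 2471, with A2 at 58.8. Of 354 genes detected in 11 cells, 2.54% were in 4 or more of the 5. This share is over all 26 cells and does not take the group into account. Of the 7 Gad1 cells without Pou3f3, P4 cell A3 read 6304. With no culture stated, A8 read 20606, A1 11680, A7 8089 and B3 6639, also without Pou3f3. The rest were in groups with no Pou3f3 cell: cultured P5 pNdrg4 cell C6 at 16149.5 and the E19 cell at 7943. Gad2 was detected in 14 cells and in B2 alone among the 5, at 4322. Slc32a1, which loads GABA and glycine into vesicles, was detected in 22 cells, among them P4 B4 at 11635, A5 at 7411.5 and A2 at 2169. Slc6a9, the glycine transporter GlyT1, was detected in 14 cells and in A6 alone among the 5, at 15300.1. A2 had neither Gad1 nor Slc6a9 and A6 had both, while P4 B4, A5 and B2 had Gad1 without Slc6a9. Reln, the secreted glycoprotein reelin, was detected in 5 cells, none of which had Pou3f3, and 46.9% of the 695 genes detected in 5 cells were also in none of the 5. These calls rest on 1 probe set per gene. A second probe set was detected in 3 cells for Gad1 (at most 1518), in 10 for Slc6a9 and in 0 for Reln. Calb2, the calcium-binding protein calretinin, was detected in 9 cells and in B2 alone among the 5, at 15580.4. Cartpt, a neuropeptide precursor named here after its values were seen, read 63355 in A5 and was at most 61.2 in the other 4. It was detected in 2 cells in all. Of 19 measured transmitter and peptide genes, 11 were detected in some cell, against 55.9% of all 18193 genes. Per cell, 1 to 3 were detected with Pou3f3 and 1 to 6 in the others. None was in all 5 and 13 were in none of the 5, among them Slc6a5, in 5 cells, and Ppp1r17, in 3.

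**Figure D5:**
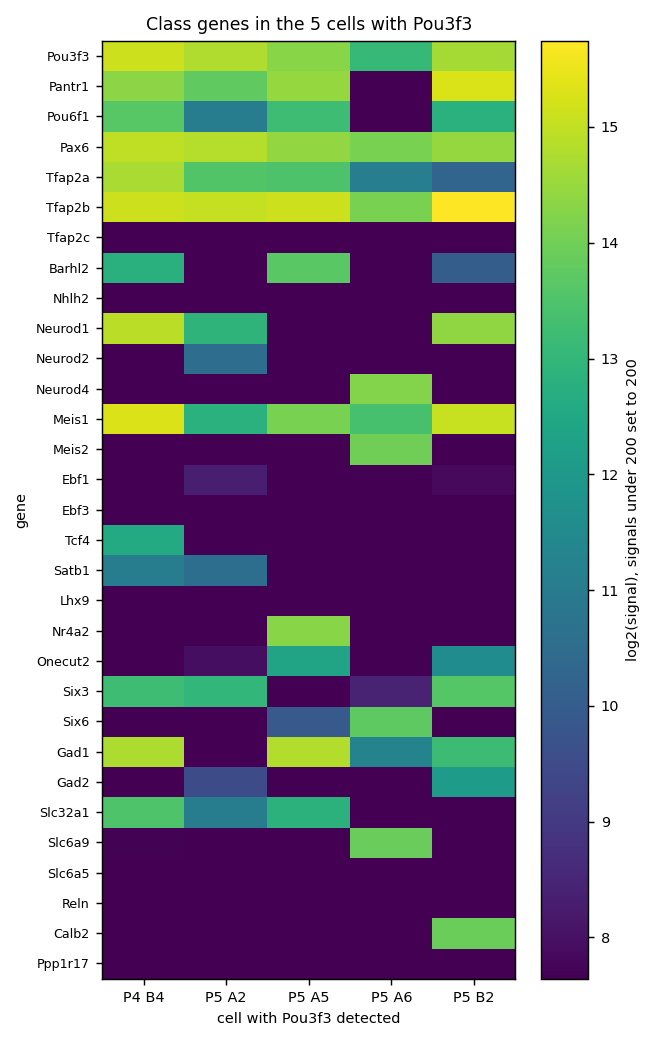
Log2 signal (colour, signals under 200 set to 200) of Pou3f3, Pantr1, Pou6f1 and the amacrine transcription factor and transmitter genes detected in at least 3 cells, in the 5 cells with Pou3f3. Pax6, Tfap2a, Tfap2b and Meis1 are above detection in all 5 columns, and the A6 column lacks Pantr1 and Pou6f1 and has Neurod4, Meis2, Six6 and Slc6a9.

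Genes of other retinal cell types were unevenly spread over the 5 cells, with the most Muller glia genes in A6 and the most bipolar cell genes in B2. Of 12 measured Muller glia genes, 7 were detected in A6 (Glul, Rlbp1, Slc1a3, Vim, Car2, Dkk3 and Gfap), 4 in P4 B4 and 1 each in A2, A5 and B2, against 0 to 6 in the other 21 cells. Of these 7, Glul was detected in 18 of 26 cells, Dkk3 in 16, Car2 in 14, Vim in 11 and Rlbp1 in 5. A6 had 2291 of 18193 genes detected. Gfap at 5166 and Slc1a3 at 2638 were detected in A6 and in no other cell of the series, while Aqp4, Apoe and Kcnj10 were below detection everywhere. The summed signal of this list ran between 7106 and 61167 in the Pou3f3 cells and between 2655 and 66465 in the others. Of 14 rod genes, 4 were detected in A6, 3 in A2, 1 each in P4 B4 and B2 and 0 in A5, against 0 to 10 in the other cells, with summed signals of 2800 to 38675 and of 2800 to 107518. Of 8 bipolar cell genes, 3 were detected in B2 (Prkca at 33619, Otx2 at 12445 and Scgn at 1765), 1 each in P4 B4 and A6 and 0 in A2 and A5, against 0 to 2 in the other cells, with summed signals of 1641 to 48829.5 and of 1600 to 34706. Over the 26 cells, Prkca was detected in 6, Otx2 in 3 and Scgn in 1. B2 had 1909 of 18193 genes detected. The part of these genes in the results on A6 and B2 was not tested.

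Cone genes numbered 0 to 1 of 7 in the Pou3f3 cells and 0 to 1 in the others, ganglion cell genes 0 to 1 of 12 against 0 to 3, horizontal cell genes, Tfap2b among them, 1 to 2 of 7 against 0 to 3, and progenitor and cell cycle genes 0 to 1 of 11 against 0 to 8. Housekeeping genes were detected at 5 to 6 of 7 in the Pou3f3 cells and 5 to 7 in the others. The 5 Pou3f3 cells had 1909 to 2610 genes detected, with a median of 2432, against a median of 3253.5 over all 26 cells. Of the 5, 4 belong to the P5 pNdrg4 group with no culture stated, whose own median was 2361.5. The part of depth in the genes not detected in the 5 was not tested. Without A6, the phi of Pou3f3 and Pantr1 was 1, with 4 cells having both genes and 21 neither.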

How the data were processed

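Single cells were picked by hand, their RNA was reverse transcribed from oligo dT and the cDNA amplified by 35 cycles of PCR, per the labels' protocols. The deposited table holds 1 linear intensity for each probe set and array, which the authors computed with MAS5 (per the submitters' processing notes, with no version stated). The trimmed mean of every array was 500, so nothing was rescaled.

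Of 45101 probe sets, 34945 named 1 gene and were used, 932 named several, 9211 named none, and 13 more named 1 gene but were controls and were left out (64 controls in all). Where several probe sets named a gene, the one with the highest mean of log2 signals floored at 200 was used, giving 18193 genes. Detection was a signal of at least 1000. Differences were between group means of those log2 values, and 2 log2 units was the fold counted. Genes detected in at least 2 cells (8570) were counted for comparisons and genes in at least 3 cells (7502) ranked by phi over 26 cells, ties by the correlation of log2 signals. Named were all 5 members, POU factors in at least 1 cell, and 3 measured neighbours on each side. The 5 genes most alike to each bright member were named too (clone-type symbols not named). List genes were named mostly where detected in at least 3 cells, and not every such gene was named. Names and neighbour order came from the platform annotation and RefSeq GRCm38.p6, whose promoter table held 3 of the 5 members.

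The members and lists were chosen with earlier results of these data known. Each array is 1 cell, and with 1 sample a group the number of arrays limits the precision. Alternatives covered the detection level, the probe set rule, the floor, quantile and 75th-percentile scaling, group medians, the filter, and leaving out each cell. The code was tested on simulated data. Computing used scipy 1.17.1, pandas 2.3.3 and numpy 2.4.6 in Python 3.11.15, with figures in matplotlib 3.10.9.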

Additional observations from a re-analysis of the deposited data

Results flagged for a closer look

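Signals of the 5 genes were compared within the groups of 4, 5 and 10 cells, with signals under 200 raised to 200. In these 15 sets, 1 cell stood apart from the others of its group in 5, all of them below the detection level of 1000; chance marks about 1 in 20 sets of untied values, a rate that does not hold where several cells are tied at 200. Cultured P5 pNdrg4 cell D6 was the highest of its 5 cells for Pou3f3 (253), Pou3f4 (249.9) and Pantr1 (228), and for each of these genes the other 4 cells were under 200 and so tied, which marks any value above 200. Among 10 P5 pNdrg4 cells without a stated culture, A7 stood apart for Pou3f1 at 676 and A2 for Pou3f4 at 410. The 5 values are signals near background and were not used as detection.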

How the results depend on the processing

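Pou3f1 was detected in 2 cells with quantile normalization and in 1 with detection at 500. The counts of cells with Pou3f3, Pantr1 and both stayed within their intervals under the detection levels, probe set rules and scalings tried. An alternative chosen after seeing the data, the second Pou3f3 probe set alone, detected the gene in 0 cells. The phi of Pou3f3 and Pantr1 lay between 0.846 and 1 with each cell left out, at 1 without A6. For culture, 2 members were past 2 log2 units in the main setting, 1 with a floor of 500, 0 with group medians, and 1 to 2 with each cell left out. Of the 5 genes most like Pou3f3 and Pantr1, 3 and 2 were kept with detection at 2000. With a floor of 50, differences of dark members moved, that of Pou3f1 between reporters at P5 to -0.96, and none was past 2 log2 units. The culture differences of Pou3f3 and Pantr1 kept their direction wherever they were not 0. No paired analysis was possible because cell names shared between groups only name cells, and no result comes from a test. Depth limits the dark genes: a signal under 1000 does not show that a transcript was absent, and with 1 sample a group no difference can be set against a spread between samples.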
